A study of Mus musculus with 26 samples.

Results

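The 7 genes Crhbp, Pcdh9, Tspan2, Tnfrsf19, Epha2, Uchl1 and Col5a3 were followed in mouse pro-B cells after deletion or knockdown of Brg1. They are 7 of 21277 genes listed in at least 1 of the 2 deposited comparison tables, and all 7 stand among the 17846 genes listed in both. They were picked for large falls on Brg1 deletion or Brg1 knockdown, so their fold changes in those comparisons describe the choice and carry no test here. Brg1, encoded by Smarca4, is the ATPase of the BAF (SWI/SNF) chromatin remodelling complexes, which slide and evict nucleosomes at promoters and enhancers. Pro-B cells are the bone marrow stage at which the immunoglobulin heavy chain locus is rearranged, and they grow in culture on interleukin 7.

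The deletion experiment compared 2 ProB Brg1-deleted libraries (Brg1F/F x ER-Cre) with 2 ProB control libraries (Brg1+/+ x ER-Cre). Both genotypes carried the tamoxifen-inducible ER-Cre transgene, were of strain C57/Bl6 and received 0.3 µM tamoxifen for the last 60 hours of a 7-day culture of B220+ marrow cells with IL7 and SCF. The knockdown experiment compared 3 Rag1-null Brg1-sh libraries with 3 Rag1-null ctrl-sh libraries. There, marrow cells of Rag1-/- mice, in which antigen receptor genes stay unrearranged, received retrovirus with a Brg1 shRNA or a control shRNA on days 3 and 4, and infected cells were enriched on beads through the human CD25 marker. Whether the libraries within a group stem from separate mice is not given in the sources used here. In bulk RNA, fewer cells of a type and less RNA per cell cannot be told apart.

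The deposited values are the authors' mean normalized reads per group, 1 number for each group and gene. In the deletion table, means over 2 libraries could be resolved into whole reads in each library for 18376 of 19404 genes, the 7 genes included. In the knockdown table, means over 3 libraries gave no single solution for the 7 genes, so they are given as the authors' means without an error. The resolved libraries held 11595383 and 8778181 reads in Brg1-deleted cells, against 10757448 and 10223287 reads in control cells, and are called the deeper and the shallower library of their group. Smarca4 itself had a mean of 6067 normalized reads in Brg1-deleted cells and 17898 in ProB control cells, 33.9% of control. In the knockdown it had the authors' mean of 6743 normalized reads with Brg1-sh and 13340 with ctrl-sh, 50.5% of control. All 12 pro-B markers were listed in both tables.

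The 4 resolved libraries differed in markers within each genotype. Il7r, Dntt and Rag2, the resolved markers of the pro-B list, summed to 1049 normalized reads in the deeper and 3660 in the shallower Brg1-deleted library, against 3963 in the deeper and 2515 in the shallower control library. The 6 resolved macrophage markers summed to 1364 and 294 normalized reads in the deeper and shallower Brg1-deleted library, against 399 and 1798 in the deeper and shallower control library. Dntt by itself had 81.2 and 592 normalized reads in the deeper and shallower Brg1-deleted library, against 1560 and 986 in the deeper and shallower control library. Both Brg1-deleted libraries were thus lower in Dntt than both control libraries. Within each genotype, the deeper Brg1-deleted and the shallower control library had the lower sum of Il7r, Dntt and Rag2 and the higher macrophage sum. The part of this difference in the results was not tested, and values are given for each library.

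The 7 proteins have unlike functions. Crhbp is a secreted protein that binds and holds corticotropin-releasing hormone. Pcdh9 is a protocadherin, a cell adhesion protein best known from neurons. Tspan2 is a tetraspanin, a membrane protein with 4 spans studied in oligodendrocytes. Tnfrsf19, also called TROY, is a receptor of the TNF receptor superfamily. Epha2 is a receptor tyrosine kinase whose ligands are ephrin-A proteins on neighbouring cells. Uchl1 is a ubiquitin C-terminal hydrolase that is abundant in neurons, and Col5a3 encodes the alpha 3 chain of type V collagen, a fibrillar collagen.

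Promoter sequences are shown for 3 of the 7 genes, chosen because Col5a3 had the largest fall on deletion, Tspan2 the largest called fall on knockdown, and Crhbp calls in both. Each is the stretch of 250 bases before a RefSeq transcript start (GRCm38.p6, the assembly that mm10 also names), read 5′ to 3′ on the gene's own strand. The Crhbp stretch is chr13:95444832-95445081 on the minus strand, the Tspan2 stretch chr3:102734520-102734769 on the plus strand, and the Col5a3 stretch chr9:20815068-20815317 on the minus strand. Most of the Tspan2 stretch, with its marked match, lies inside the gene body as deposited, which starts at 102734529. Capitals mark matches to the motifs described next.
Crhbp: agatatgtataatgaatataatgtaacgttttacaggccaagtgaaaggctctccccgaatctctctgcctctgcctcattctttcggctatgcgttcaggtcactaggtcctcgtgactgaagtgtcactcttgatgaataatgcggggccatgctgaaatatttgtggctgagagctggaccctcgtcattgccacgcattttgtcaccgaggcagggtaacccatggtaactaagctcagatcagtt
Tspan2: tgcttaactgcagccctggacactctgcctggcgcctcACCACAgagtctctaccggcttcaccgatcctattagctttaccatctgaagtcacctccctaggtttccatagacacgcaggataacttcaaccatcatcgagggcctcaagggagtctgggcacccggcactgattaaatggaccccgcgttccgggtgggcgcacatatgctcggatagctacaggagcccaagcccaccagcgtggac
Col5a3: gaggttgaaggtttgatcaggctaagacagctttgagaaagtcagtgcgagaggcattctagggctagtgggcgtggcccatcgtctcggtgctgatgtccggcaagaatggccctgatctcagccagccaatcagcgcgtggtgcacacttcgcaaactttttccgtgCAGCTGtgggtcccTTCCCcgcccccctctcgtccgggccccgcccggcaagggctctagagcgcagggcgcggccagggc

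All 7 genes had an entry among the RefSeq promoters, with 10 windows of 300 bases that end 50 bases past a start. Motifs of 7 transcription factor families or promoter elements were searched on both strands. GGGAA, the core bound by Ikaros proteins, stood in windows of Col5a3, Epha2, Pcdh9, Tnfrsf19 and Tspan2, 5 of the 7 genes. Counted by window, it stood in 5 of the 10, and in 62.7% of all 32851 windows. GAGGAA, a core of PU.1 sites, stood in windows of Pcdh9, Tnfrsf19 and Uchl1, in 4 of the 10 windows and in 28.3% of all windows. Both Pcdh9 windows overlap and hold the same match. CAGCTG, an E-box of E proteins, stood in windows of Col5a3 and Tnfrsf19, in 2 of the 10 windows and in 16.3% of all windows. TGTGGT, the core of RUNX sites, was found for Tspan2 only, in the orientation ACCACA, and in 16.8% of all windows. The palindromic EBF1 motif was found for Tspan2 only, in its other window, and in 0.904% of all windows. That window (chr3:102734965-102735264) lies inside the gene body as deposited, as does the Tnfrsf19 window with CAGCTG (chr14:61037938-61038237). TATAAA, the TATA box, was found for Crhbp only, past its start, and in 13.6% of all windows. The AP-1 motif matched none of the 7 genes and 7.81% of all windows. GC content of the windows of the 7 genes lay between 48.0% for Crhbp and 63.3% for Col5a3, against a median of 52.7% over all windows, and no motif was shared by all 7 genes.

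Crhbp, the secreted binding protein, was the most abundant of the 7 genes per kilobase of exon in both control groups. It lies on chromosome 13 from 95431371 to 95444831 on the minus strand (mm10, ENSMUSG00000021680). It had 182 and 84.9 normalized reads in the deeper and shallower Brg1-deleted library, against 1827 and 1522 in the deeper and shallower control library. Both Brg1-deleted libraries were far below both control libraries. The means were 134 ± 68.9 normalized reads in Brg1-deleted cells and 1675 ± 216 in control cells (SD, n = 2 each), a log2 fold change of -3.65. In the Rag1-null cells, the authors' means were 827 normalized reads with Brg1-sh and 2423 with ctrl-sh, a log2 fold change of -1.55. Crhbp was thus left at 7.98% of control after deletion and 34.1% after knockdown. It was 1 of 3 genes called lower in both of the authors' deposited tables, with Smarca4 and Gm5537.

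The partners of Crhbp were near or under the limit of detection. Of the other 8 genes of the corticotropin-releasing hormone and urocortin list, Pomc alone was listed in the deletion table, and Pomc and Ucn2 were listed in the knockdown table. Pomc, the precursor of the pituitary hormone that this pathway releases, had a mean of 0.432 normalized reads in Brg1-deleted cells and 3.46 in control cells. The ligands Crh, Ucn and Ucn3, the receptors Crhr1 and Crhr2, and the adrenal receptor Mc2r were listed in neither table.

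Among the adhesion and membrane proteins, Pcdh9 fell the most evenly between libraries. Pcdh9 lies on chromosome 14 from 93015512 to 93888732 on the minus strand (ENSMUSG00000055421). It had 13.0 and 12.8 normalized reads in the deeper and shallower Brg1-deleted library, against 209.6 and 253 in the deeper and shallower control library. The Brg1-deleted libraries lay together and far below both control libraries. They rest on 15 and 11 reads, and counting error alone exceeds their difference, so the evenness is not a measured trait of the gene. The means were 12.9 ± 0.118 normalized reads in Brg1-deleted cells and 231 ± 30.8 in control cells (SD, n = 2 each), a log2 fold change of -4.17. In the knockdown the authors' means of Pcdh9 were 145 normalized reads with Brg1-sh and 252 with ctrl-sh, or 57.3% of control, so that most of the control level was left.

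Tspan2 lies on chromosome 3 from 102734529 to 102772292 on the plus strand (ENSMUSG00000027858). It had 35.4 and 75.6 normalized reads in the deeper and shallower Brg1-deleted library, against 287 and 166 in the deeper and shallower control library. The groups did not overlap, yet the shallower libraries of both genotypes stood much closer together than the deeper ones. The means were 55.5 ± 28.4 normalized reads in Brg1-deleted cells and 226 ± 85.2 in control cells (SD, n = 2 each), a log2 fold change of -2.03. With Brg1-sh, the authors' mean of Tspan2 was 54.9 normalized reads, against 161 with ctrl-sh, a log2 fold change of -1.55. That was the largest of the 8 falls called in the authors' deposited knockdown table, while Tspan2 was not called in the deletion table.

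The receptors Tnfrsf19 and Epha2 were the 2 genes whose deletion groups overlapped. Tnfrsf19 lies on chromosome 14 from 60963834 to 61046855 on the minus strand (ENSMUSG00000060548). It had 82.9 and 366 normalized reads in the deeper and shallower Brg1-deleted library, against 955 and 310.2 in the deeper and shallower control library. The shallower Brg1-deleted library was thus above the shallower control library. The means were 225 ± 200.4 normalized reads in Brg1-deleted cells and 632 ± 456 in control cells (SD, n = 2 each). The log2 fold change of Tnfrsf19 was -1.49 on deletion, -2.93 without the shallower Brg1-deleted library and -0.79 without the deeper one. It was -2.09 without the shallower control library and -0.47 without the deeper one. In Rag1-null cells the authors' means of Tnfrsf19 were 95.5 normalized reads with Brg1-sh and 266 with ctrl-sh, a log2 fold change of -1.48.

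Epha2 lies on chromosome 4 from 141301240 to 141329384 on the plus strand (ENSMUSG00000006445). It had 314 and 1184 normalized reads in the deeper and shallower Brg1-deleted library, against 1319 and 1058 in the deeper and shallower control library. Only the deeper Brg1-deleted library was low, at 26.5% of the control mean, while the shallower stood at 99.6%. The means were 749 ± 615 normalized reads in Brg1-deleted cells and 1189 ± 185 in control cells (SD, n = 2 each). The log2 fold change of Epha2 was -0.67 on deletion, -1.92 without the shallower Brg1-deleted library and -0.01 without the deeper one. In Rag1-null cells the authors' means of Epha2 were 232 normalized reads with Brg1-sh and 616 with ctrl-sh, a log2 fold change of -1.41. Tspan2, Tnfrsf19, Epha2 and Col5a3 were each lowest in the deeper Brg1-deleted library, the library with the lowest sum of Il7r, Dntt and Rag2. For Col5a3 this rests on 2 reads. Crhbp (84.9 against 182 normalized reads), Uchl1 (40.7 against 78.6) and, within counting error, Pcdh9 (12.8 against 13.0) were lowest in the shallower Brg1-deleted library. The part of the marker difference in these levels was not tested.

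Uchl1, the deubiquitinating enzyme, lies on chromosome 5 from 66676098 to 66687231 on the plus strand (ENSMUSG00000029223). It had 78.6 and 40.7 normalized reads in the deeper and shallower Brg1-deleted library, against 431 and 377 in the deeper and shallower control library. Both Brg1-deleted libraries were well below both control libraries. Uchl1 averaged 59.7 ± 26.8 normalized reads in Brg1-deleted cells (SD, n = 2), 14.8% of the control mean, a log2 fold change of -2.76. With Brg1-sh, the authors' mean of Uchl1 was 251 normalized reads, against 553 with ctrl-sh, 45.4% of control.

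Col5a3, the collagen chain, was nearly absent from Brg1-deleted cells. It lies on chromosome 9 from 20770050 to 20815067 on the minus strand (ENSMUSG00000004098), 801 kb from Smarca4. It had 0 and 2.33 normalized reads in the deeper and shallower Brg1-deleted library, against 447 and 322 in the deeper and shallower control library. These rest on 2 reads in both Brg1-deleted libraries together and 780 reads in both control libraries. After size factors, 2 against 780 reads is 0.257% of control, with an exact 95% interval of 0.0311% to 0.933% that covers counting error only. The knockdown did not show a loss of that size, with the authors' means of 35.5 normalized reads with Brg1-sh and 48.4 with ctrl-sh, 73.5% of control. Col5a3 also differed in level between the 2 control groups, at 56.5 normalized reads per kilobase of exon in ProB control cells and 7.10 in ctrl-sh cells, in tables that were normalized separately.

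**Figure D1:**
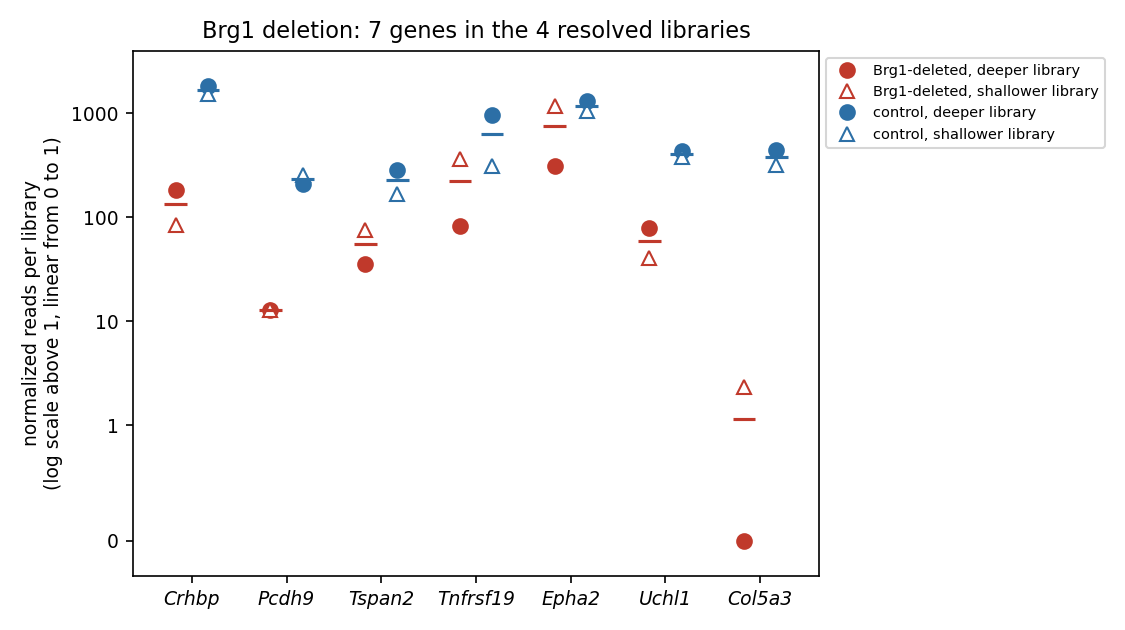
Normalized reads of the 7 genes in each of the 4 resolved libraries of the deletion experiment (red, Brg1-deleted; blue, control; filled circles, deeper library; open triangles, shallower library; bars, group means; log scale above 1). The groups overlap for Tnfrsf19 and Epha2 and are apart for the other 5 genes.

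Across the 7 genes, both Brg1-deleted libraries lay below both control libraries for 5. The same held for 23.4% of the 16798 genes that were resolved and averaged 1 normalized read or more. The authors' deposited deletion table called 4 of the 7 genes lower (Crhbp, Pcdh9, Uchl1 and Col5a3), where 0.742% of its 19404 genes were called lower, 0.732% higher and 1.47% in either direction. The authors' deposited knockdown table called 4 of the 7 lower (Crhbp, Tspan2, Tnfrsf19 and Epha2), where 0.0406% of its 19719 genes were called lower, 0.177% higher and 0.218% in either direction. These counts follow from how the genes were picked, and nothing is read from them. Just inside the threshold of 0.05 stood Tspan2, with adjusted p = 0.0464 in the authors' deposited knockdown table. The nearest of the 7 outside it was Tspan2 again, with adjusted p = 0.1238 in the authors' deposited deletion table. Without the genes that carry the authors' undefined mark described under processing, 1 of the 7 was called lower on deletion. With limma on the 4 resolved libraries, 0 of the 7 and 0 of all 16798 genes were called, while 2816 genes had an unadjusted p under 0.05.

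The order of the genes differed between the experiments. After deletion the share of the control mean was lowest for Col5a3 (0.303%), followed by Pcdh9 (5.56%), Crhbp (7.98%), Uchl1 (14.8%), Tspan2 (24.5%), Tnfrsf19 (35.5%) and Epha2 (63.0%). After knockdown it was lowest for Crhbp and Tspan2 (34.1% each), followed by Tnfrsf19 (35.8%), Epha2 (37.7%), Uchl1 (45.4%), Pcdh9 (57.3%) and Col5a3 (73.5%). The share left was smaller on deletion than on knockdown for Col5a3, Pcdh9, Crhbp, Uchl1 and Tspan2, was about the same for Tnfrsf19 (35.5% and 35.8%) and was larger for Epha2. Single Brg1-deleted libraries overlapped in this order: Crhbp (10.9% and 5.07%) overlapped Uchl1 (19.5% and 10.1%) and Pcdh9 (5.60% and 5.53%). Tspan2 (15.6% and 33.4%) lay within the range of Tnfrsf19 (13.1% and 57.9%), which overlapped Epha2 (26.5% and 99.6%). Uchl1 also overlapped Tspan2 and Tnfrsf19, and Tspan2 overlapped Epha2. The difference between the experiments was not tested. They differ in cells, genotype and method of lowering Brg1, and the knockdown has no value per library.

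**Figure D2:**
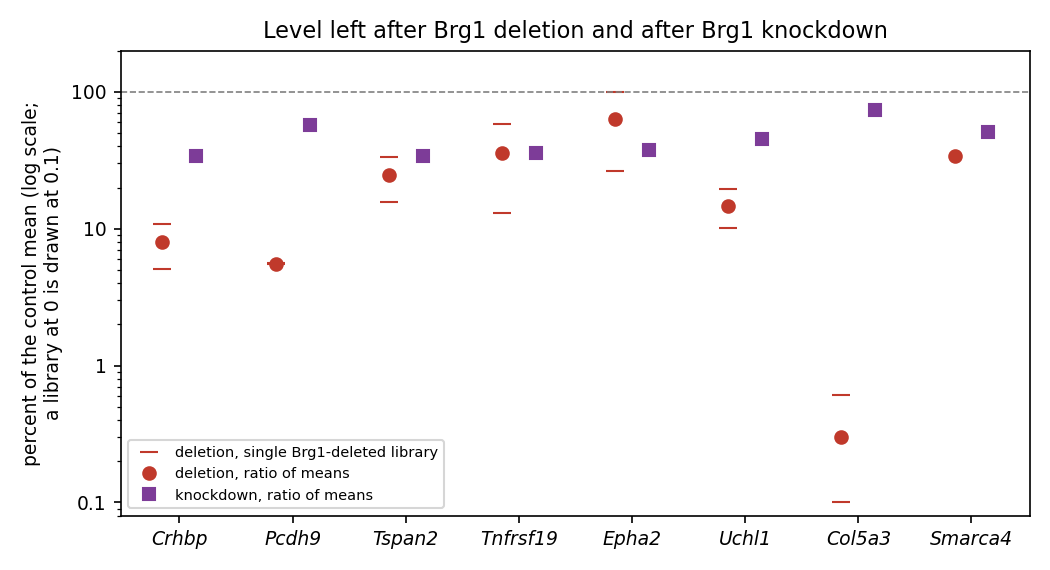
Share of the control mean that was left, in percent on a log scale, for the 7 genes and Smarca4 (red circles, deletion; red dashes, the single Brg1-deleted libraries; purple squares, knockdown; dashed line, 100%; the Col5a3 library at 0 is drawn at 0.1). Col5a3 and Pcdh9 are the lowest on deletion at 0.303% and 5.56% and the highest on knockdown at 73.5% and 57.3%.

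The median log2 fold change of the 7 genes was -2.76 on deletion, between -8.37 for Col5a3 and -0.67 for Epha2, and the median over all 19404 genes was -0.0014. On knockdown it was -1.41, between -1.55 and -0.44, against -0.0028 over all 19719 genes. Smarca4 was left at 33.9% on deletion, and by group means all of the 7 but Tnfrsf19 and Epha2 were left at a smaller share. Smarca4 was not resolved into libraries, so its share has no spread. Single Brg1-deleted libraries of Tnfrsf19 (13.1% and 57.9%) and Epha2 (26.5% and 99.6%) lay on both sides of it, and Tspan2 reached 33.4%. On knockdown Smarca4 was left at 50.5%, and all but Pcdh9 and Col5a3 were left at a smaller share.

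**Figure D3:**
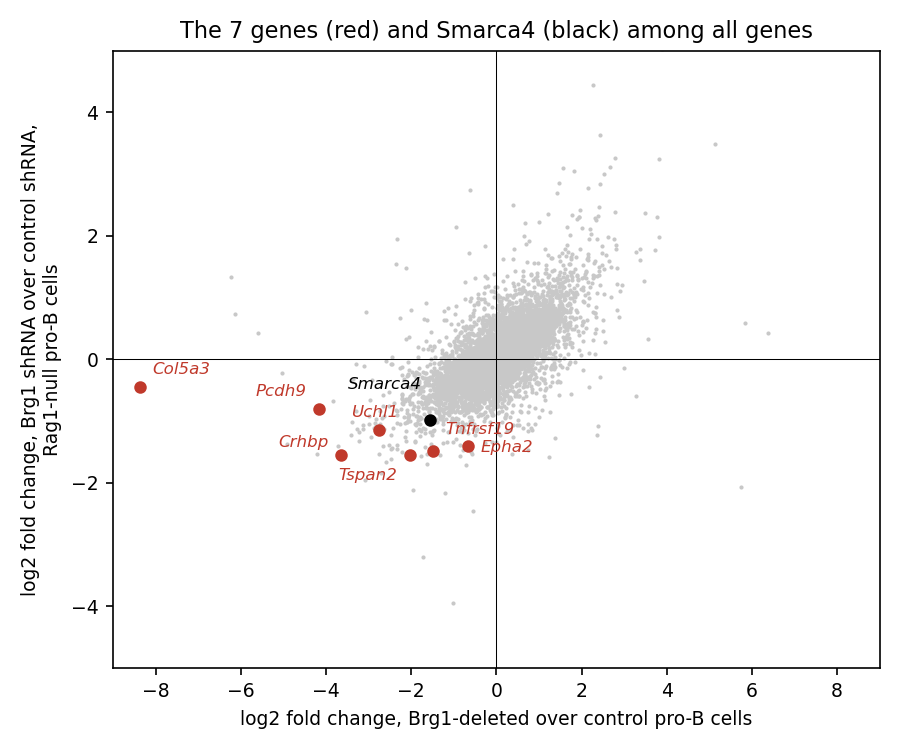
Log2 fold change on deletion (horizontal) against knockdown (vertical) for 11953 genes (grey; 1 lies outside the axes), the 7 genes (red) and Smarca4 (black). All 7 lie below 0 on both axes, with Col5a3 and Epha2 at the ends of the horizontal range of the 7, at -8.37 and -0.67.

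In control cells, the levels of the 7 genes per kilobase of exon ranged widely. In ProB control cells Crhbp had 993 normalized reads per kilobase, a level above that of 97.1% of genes. Epha2 (254) and Uchl1 (250.1) followed, then Tnfrsf19 (132), Pcdh9 (62.3), Col5a3 (56.5) and Tspan2 (49.4). The spread of Tnfrsf19 between control libraries reached down to the levels of Pcdh9 and Col5a3, and neither Epha2 and Uchl1 nor Pcdh9, Col5a3 and Tspan2 differed among themselves beyond their spread. In ctrl-sh cells the order per kilobase was Crhbp (1437), Uchl1 (342), Epha2 (132), Pcdh9 (67.9), Tnfrsf19 (55.8), Tspan2 (35.2) and Col5a3 (7.10).

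The genes with the most similar course over the 4 group means were named by the smallest Euclidean distance of centred log2(mean + 1) values among 11542 genes. This distance also takes in differences in level between the 2 experiments, whose values were normalized separately. Tspan2 was nearest to Dntt (distance 0.163) and Nkd2 (0.222). Dntt, which encodes terminal transferase of early lymphocytes, had means of 337 normalized reads in Brg1-deleted and 1273 in ProB control cells, and 330 with Brg1-sh against 840 with ctrl-sh. Tnfrsf19 was nearest to Kit (0.284), the SCF receptor, and to Gfra1 (0.316). Epha2 was nearest to Gspt2 (0.0778) and Naalad2 (0.269), and Uchl1 to Coro2b (0.122) and Bok (0.302). Gspt2 and Naalad2 were at low counts, with highest group means of 14.3 and 10.3 normalized reads, both in ProB control cells. Crhbp was nearest to Raet1e (0.525) and to the tubulin gene Tubb3 (0.588), and Pcdh9 to Mfsd2a (0.663) and Slc6a9 (0.750). Col5a3 had no close match, with H19 at 1.68, an imprinted noncoding RNA that had 3.92 normalized reads in Brg1-deleted cells and 188 in ProB control cells. With a pseudocount of 10 in place of 1, 6 of these 14 nearest genes stayed nearest, none of them those of Pcdh9, Epha2 or Uchl1.

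The relatives of the 7 genes were examined by family, counting the family members other than the 7. Over all listed genes, 1.47% were called on deletion and 0.218% on knockdown. A count of 0 in lists of this size is near those shares, and nothing is read from it. None of the other 8 listed protocadherins was called on deletion; 6 were below 0, with a median of -1.07. The next most abundant one, Pcdh11x, had 4.77 normalized reads in Brg1-deleted and 34.0 in control cells, and was not called (adjusted p 0.1099 in the authors' deposited table). On knockdown 0 of 7 other protocadherins were called and 3 were below 0. None of the other 24 listed tetraspanins was called on deletion, and 13 were below 0 with a median of -0.13. None of the other 25 was called on knockdown, and 12 were below 0. The most abundant tetraspanin was the leukocyte protein Cd37, with 9439 normalized reads in Brg1-deleted and 4627 in control cells, not called, and the next was Tspan13, with 3099 and 2776.

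Of the other 22 listed TNF receptors, 0 were called on deletion, with 11 below and 11 above 0. Of the other 21 on knockdown, 1 was called, and it was higher. That was Ngfr, a neurotrophin receptor, with the authors' means of 94.2 normalized reads with Brg1-sh and 9.88 with ctrl-sh (adjusted p 0.0464 in the authors' deposited table). On deletion Ngfr had 445 and 17.4 normalized reads in the deeper and shallower Brg1-deleted library, against 3.90 and 29.0 in the deeper and shallower control library, and these overlapped. The B cell receptors Tnfrsf13b (TACI; 2392 normalized reads in Brg1-deleted and 1044 in control cells) and Tnfrsf13c (BAFF receptor; 870 and 814) were the most abundant and were not called. Of the other 17 listed Eph receptors and ephrins, 0 were called in either experiment, with 6 below 0 on deletion and 8 on knockdown. Efnb2, the most abundant after Epha2, had 72.7 normalized reads in Brg1-deleted and 69.7 in control cells. Ephb2, named after its values were seen, had 6.05 and 4.65 normalized reads in the deeper and shallower Brg1-deleted library, against 34.1 and 42.0 in the deeper and shallower control library. Both its Brg1-deleted libraries lay below both control libraries, as for 23.4% of the resolved genes averaging 1 normalized read or more. Ephb2 was not called (log2 fold change -2.83, adjusted p 0.0743 in the authors' deposited table).

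The ubiquitin C-terminal hydrolases were the family with a second called fall. Uchl5, a proteasome-bound deubiquitinase, had 282 and 280 normalized reads in the deeper and shallower Brg1-deleted library, against 744 and 726 in the deeper and shallower control library. The groups were far apart, and the authors' deposited table gives a log2 fold change of -1.39 (adjusted p 0.0184). Uchl3 had 255 normalized reads in Brg1-deleted and 574 in control cells and was not called (adjusted p 0.078 in the authors' deposited table). Bap1 had 1424 and 1376. On knockdown 0 of the other 4 were called, 3 of them below 0. Of the other 9 listed fibrillar collagens, 0 were called on deletion, with 6 below 0 and a median of -0.17, and 0 of 8 on knockdown. The most abundant ones were Col27a1, with 518 normalized reads in Brg1-deleted and 634 in control cells, and Col11a2, with 208 and 141.

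**Figure D4:**
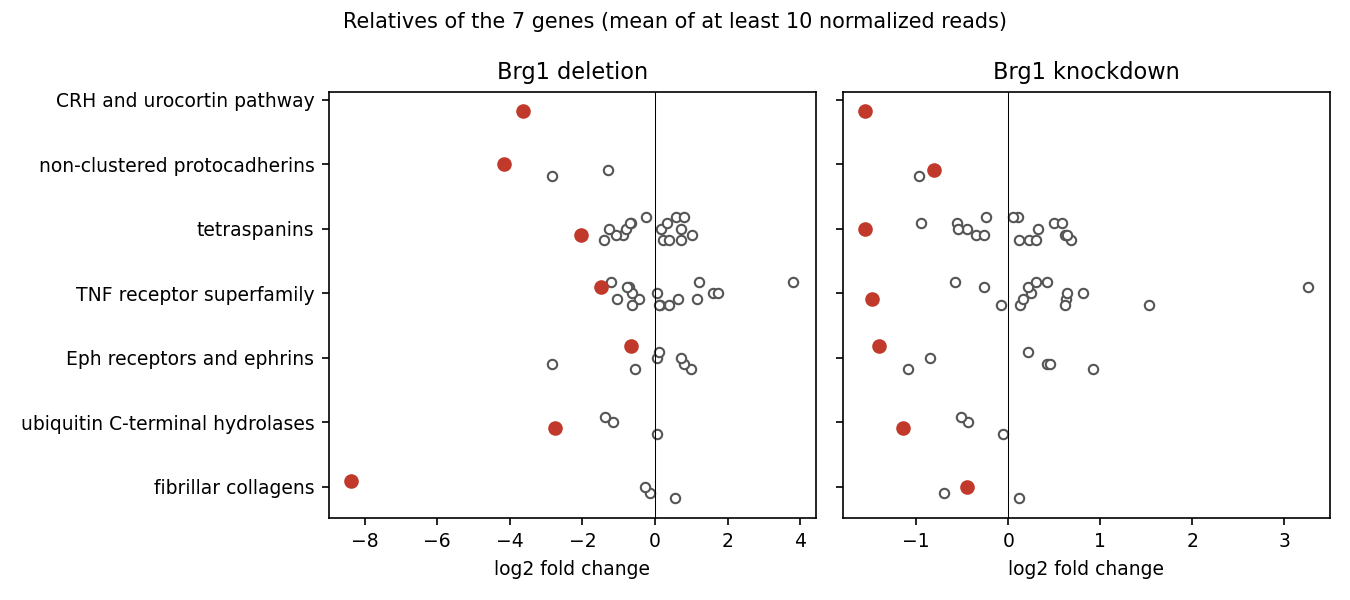
Log2 fold change of the 7 genes (red) and of their family members (open circles) with a mean of at least 10 normalized reads, on deletion (left) and knockdown (right). Col5a3 at -8.37 stands apart from the other fibrillar collagens on deletion, while the tetraspanins and TNF receptors spread to both sides of 0.

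Markers of other cell types were set beside the 7 genes, and their part in the falls was not tested. The T cell markers (7 of 8 listed) summed to 140.0 and 113 normalized reads in the deeper and shallower Brg1-deleted library, against 517 and 460.3 in the deeper and shallower control library. The highest were Thy1, with 42.2 normalized reads in Brg1-deleted and 266 in control cells, and Lck, with 62.8 and 195.0, both called lower in the authors' deposited deletion table. Thy1 and Lck carried the sum; Cd3e, Cd3g, Cd4 and Cd8a overlapped between the groups, and Cd4 averaged 11.1 in Brg1-deleted and 5.98 in control cells. On knockdown the authors' means were 427 with Brg1-sh and 273 with ctrl-sh for Lck, and 136 and 204 for Thy1, neither called. The 3 listed neuronal markers summed to 103 and 77.9 in the deeper and shallower Brg1-deleted library, against 442 and 558 in the control libraries. Most of this was Tubb3, with 51.9 normalized reads in Brg1-deleted and 485 in control cells, and the next was Syp, with 34.4 and 6.94. Map2 had 4.04 and 8.44, and Snap25, Rbfox3, Stmn2, Nefl and Gap43 were not listed on deletion. Of the other lists, Adgre1 and Vsig4 (macrophages), Trac (T cells) and Lum (stroma) were not listed on deletion either.

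The 7 resolved stromal markers, which include other collagens, summed to 44.1 and 12.8 normalized reads in the deeper and shallower Brg1-deleted library, against 18.5 and 60.0 in the control libraries. Col1a1 averaged 3.32 in Brg1-deleted and 12.5 in control cells and Pdgfrb 3.19 and 3.94. The neutrophil markers (7 of 8 resolved) summed to 46.7 and 611 in the deeper and shallower Brg1-deleted library, against 1261 and 681 in the control libraries. S100a8, S100a9, Ltf, Camp and Ngp overlapped between the groups. Mpo, the most abundant per kilobase and not resolved, had 513 in Brg1-deleted and 2177 in control cells and was not called. Of all 8 neutrophil markers, Elane (32.2 normalized reads in Brg1-deleted and 224 in control cells) and Prtn3 (81.4 and 443) were called lower in the authors' deposited deletion table. Mast cell markers summed to 632 and 250.0 against 249.6 and 629, and plasmacytoid dendritic markers to 2320 and 1187 against 763 and 2349, in the same order of libraries. For the stromal, mast cell, plasmacytoid dendritic and macrophage lists the groups overlapped, and of their genes Irf8 alone was called, higher, with 6601 normalized reads in Brg1-deleted and 2730 in control cells. In the pro-B list, Cd24a had 16597 normalized reads in Brg1-deleted and 12687 in control cells, and Cd79b, the only one called on deletion, 20542 and 8045. The erythroid markers (5 of 8 listed) were near 0, at 15.6 and 14.0 against 11.7 and 10.0.

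Position was not used to pick the genes, and their neighbours were examined within 250 kb. Of 58 neighbours listed on deletion, 1 was called, and of 56 listed on knockdown, 0 were called, where 1.47% and 0.218% of all listed genes were. The called one was Iqgap2, 182 kb from Crhbp, with 256 normalized reads in Brg1-deleted and 621 in control cells (log2 fold change -1.28, adjusted p 0.0394 in the authors' deposited table). The nearest listed gene on one side of Crhbp, Aggf1, had 938 and 1035. Pcdh9 had no listed neighbour in that window. On one side of Tnfrsf19 the nearest was Mipep, with 216 normalized reads in Brg1-deleted and 203 in control cells. The nearest neighbour of Tspan2, Tshb, had means under 2 normalized reads in both groups, as had Limch1 beside Uchl1, while Apbb2 on its other side had 62.2 and 86.6. Epha2 lay between Gm13055 and Gm13074, both at low counts, and its 10 neighbours with a mean of at least 10 ran from -0.44 to 0.58. Col5a3 lay between Olfm2, with 5.93 and 4.49 normalized reads, and A230050P20Rik, with 566 and 444, and its 15 such neighbours had a median of -0.20. The lowest of the 15 was Ppan, with 478 normalized reads in Brg1-deleted and 958 in control cells, not called, and the highest stood at 0.81.

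Col5a3 and Smarca4 lie on the same chromosome, and the 39 listed genes between them were examined as the interval between the lost gene and the floxed one. Over all listed genes, 1.47% were called on deletion and 0.218% on knockdown. On deletion 1 of the 39 was called, AB124611, with 138 normalized reads in Brg1-deleted and 437 in control cells (log2 fold change -1.66, adjusted p 0.0231 in the authors' deposited table). The 29 genes with a mean of at least 10 had a median of 0.09 and ran from -1.66 to 1.63. On knockdown, where both groups share the Rag1-/- genotype, 0 of the 39 were called and the 28 genes with such a mean had a median of 0.04.

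**Figure D5:**
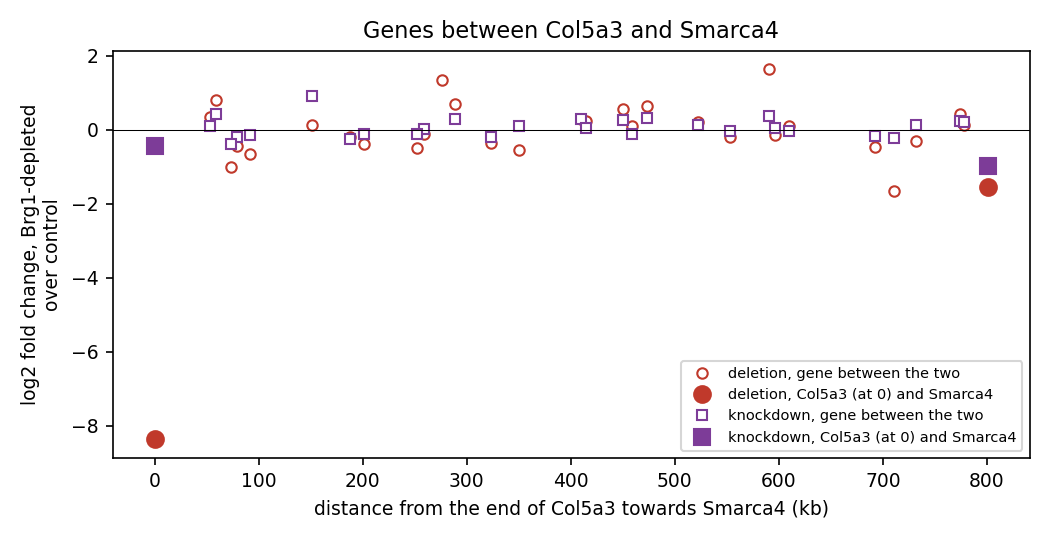
Log2 fold change of the genes between Col5a3 (at 0 kb) and Smarca4 (at 801 kb) with a mean of at least 10 normalized reads, against distance from Col5a3 (red, deletion; purple, knockdown; filled, Col5a3 and Smarca4). On deletion the genes between lie from -1.66 to 1.63, against -8.37 for Col5a3.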

How the data were processed

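Poly(A) RNA was sequenced from strand-marked (dUTP) libraries, per the labels' protocols; 10 RNA-seq libraries enter and 16 other samples of the series were not analysed here. The submitters' processing notes name CASAVA, RSEM, DESeq and mm10 without versions. The deposited tables give, per the file headers, the authors' mean signal per group in normalized reads, their log2 fold change, fold, p-value and Benjamini-Hochberg adjusted p, exon length and coordinates, and a mark for confounded genes that no source used here defines. The mark covers 4 of the 7 genes (Pcdh9, Tspan2, Uchl1 and Col5a3) and 9145 genes (47.1%) of the deletion table; 78.3% of marked and 0.0195% of unmarked genes overlap another listed gene, but no body of the 7 genes does. In RefSeq, Pcdh9, Tspan2, Tnfrsf19 and Uchl1 overlap noncoding or predicted genes, and whether counting used strand is not given in the sources used here.

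Called means an adjusted p under 0.05 in the authors' table. Deletion means carry 4 decimals, so that each was resolved into whole reads of 2 libraries divided by their size factors (1.16 and 0.860 in Brg1-deleted, 1.03 and 0.999 in control libraries). A single solution was found for 18376 genes (94.7%), while 2.6% of random values up to 100 had any. Random values above 100 have more possible read pairs and were not drawn, so the 2.6% does not cover the larger means. Which labelled sample a resolved library stands for is unknown. On simulated reads 100% of resolved genes were right. limma 3.58.1 (R 4.3.3) tested log2(normalized reads + 0.5) of 16798 resolved genes as an alternative. On simulated data for the deletion comparison it found 72.5% of 200 genes changed 4-fold. The simulation gave all genes the same set variation beyond counting error, without the marker differences between libraries. The 72.5% is therefore not the power on the real libraries. A planned edgeR fit on the resolved reads was not run, and limma was the only fit made on them. Other values came from Python 3.11.15 with pandas 2.3.3 and scipy 1.17.1. Alternatives were pseudocounts, median centring, leaving out marked genes and leaving out each resolved library. P-values measure the spread between libraries, which may be technical.

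The 7 genes, the family, marker and motif lists and the tests were chosen with earlier results of these data known. Genes named beside the 7 were those called or the 2 most abundant per kilobase in a list, the 2 nearest in course, and called or nearest neighbours. AB124611 was named after its value was seen. Some neighbours that this rule names are not reported here.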

Additional observations from a re-analysis of the deposited data

How the results depend on the processing

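The 4 falls called on deletion became 1 without marked genes (10259 genes left, which drops Pcdh9, Uchl1 and Col5a3), 0 with limma on the resolved reads, and 0 to 3 when 1 resolved library was left out of limma. Leaving out 1 library leaves a group of 1, which is assumed to vary like the other group's 2 libraries. Genes called on deletion were 286 in the authors' deposited table, 162 without marked genes, 0 with limma (2816 at an unadjusted p under 0.05) and 0 to 46 with 1 library left out. The 46 came without the shallower control library, and the other 3 libraries gave 0 when left out. Genes called on knockdown were 43, and 28 without marked genes. The median log2 fold change of the 7 genes on deletion, -2.76, ran from -3.31 to -2.66 with 1 library left out. The value of -3.31, without the deeper Brg1-deleted library, moved beyond the spread of the median between libraries (0.529). The fold changes of the 7 genes stayed below 0 under the pseudocounts and centring, and on deletion with each library left out, though Epha2 reached -0.01 without the deeper Brg1-deleted library. No library could be left out of the knockdown. Tnfrsf19 ran from -2.93 to -0.47 and Tspan2 from -2.68 to -1.58 with 1 library left out, both within the wide spread of their libraries. Values of single genes that moved beyond the spread between libraries were Pcdh9 (-3.40) and Col5a3 (-5.14) with a pseudocount of 10, Crhbp (-4.30) without the deeper Brg1-deleted library, and Epha2 (-1.92) without the shallower one. The spread used for Pcdh9, 0.157, rests in part on 15 and 11 reads and may be too small. Without the shallower Brg1-deleted library Col5a3 had 0 reads and no fold change. The cause of these shifts was not tested beyond the smaller number of genes or libraries. No paired analysis was possible because the resolved libraries carry no replicate number and the deposited values are group means. Depth limits Col5a3 most, whose share rests on 2 reads, and the knockdown means give no spread between libraries.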
